A study of Mus musculus with 24 samples.

Results

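mmu-miR-21a-5p, mmu-miR-199a-3p, mmu-miR-199b-5p and mmu-miR-214-3p (below without the prefix mmu for mouse) are 4 mature miRNAs that liver biology ties to fibrosis, and they were followed here in serum exosomes of mice given a hepatotoxic plant compound. They were taken from the mouse miRNA array by exact name, as 4 of its 1881 miRNAs. Male BALB/c mice received toosendanin (TSN), a triterpenoid of Melia that injures the liver, at 80 mg/kg or the vehicle for 3, 9 or 21 days, and serum was drawn 24 h after the last dose. This gave 6 groups (control day 3, day 9 and day 21, and TSN day 3, day 9 and day 21) with 4 arrays each, 24 in all. The arrays are the replicates, and the labels do not say whether an array holds the serum of a single animal or of a pool, so p-values measure only the spread between these arrays. A miRNA array carries no vesicle marker, so the labelled source could not be checked directly. The red cell miRNA miR-451a was well above background on 24 of 24 arrays, and the hepatocyte miRNA miR-122-5p on 9 of 12 control and 12 of 12 TSN arrays.

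A miRNA guides the Argonaute complex to messenger RNAs through its seed, the bases just behind the 5′ end, and lowers the output of those messages. miR-21 is made by many cell types, is induced in activated hepatic stellate cells and lowers Smad7, an inhibitor of TGF-β signalling. The miR-199a and miR-214 genes are processed together from Dnm3os, a long transcript of mesenchymal cells that runs antisense within Dnm3, and both miRNAs are known to be high in fibrotic liver. In serum, a lower level can mean fewer vesicles that carry a miRNA or fewer copies in each, and these cannot be told apart in bulk RNA.

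The mature sequences show which members can share targets. They are from RefSeq (GRCm38.p6, 5′ to 3′) with the seed, bases 2 to 8, in capitals. Of the 4 members, 3 matched an entry of the RefSeq table used here, and miR-199b-5p is named only.
miR-21a-5p: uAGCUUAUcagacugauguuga
miR-21c: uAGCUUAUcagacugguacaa
miR-199a-3p: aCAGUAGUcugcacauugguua
miR-214-3p: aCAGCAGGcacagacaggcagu
miR-761: gCAGCAGGgugaaacugacaca
The 3 members with an entry have 3 different seeds. Of the other array miRNAs with a RefSeq entry, miR-21c has the seed of miR-21a-5p, miR-761 has that of miR-214-3p, and 0 have that of miR-199a-3p.

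miR-21a-5p lies at chr11:86584120-86584141 on the minus strand, within the span of Vmp1. miR-199a-3p is encoded at chr9:21496498-21496519 (minus strand, within Dnm2) and at chr1:162217883-162217904 (plus strand, within Dnm3 and Dnm3os), and miR-199b-3p of Mir199b, within Dnm1, has the same 22 bases. miR-214-3p lies at chr1:162223438-162223459, also within Dnm3os. The hairpins below are those of the miR-21a gene and of the neighbouring genes in Dnm3os. Capitals mark the mature arms, the 5p arm first.
Mir21a: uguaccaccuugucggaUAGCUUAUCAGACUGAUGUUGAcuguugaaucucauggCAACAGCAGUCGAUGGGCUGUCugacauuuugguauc
Mir199a-2: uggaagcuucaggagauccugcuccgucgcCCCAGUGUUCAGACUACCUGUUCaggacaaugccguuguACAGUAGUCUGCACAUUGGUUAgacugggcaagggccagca
Mir214: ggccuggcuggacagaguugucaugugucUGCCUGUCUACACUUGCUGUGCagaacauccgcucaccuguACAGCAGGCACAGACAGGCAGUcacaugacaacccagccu

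The probe that stands for each member limits what its signal can tell apart. Capitals mark bases that pair with the member's mature sequence, and the miR-199b-5p probe is in lower case because no mature sequence was at hand to pair it with.
miR-21a-5p probe: TCAACATCAGTCTGATAAGC
miR-199a-3p probe: TAACCAATGTGCAGACTACT
miR-199b-5p probe: gaacaggtagtctaaacactgg
miR-199a-5p probe: GAACAGGTAGTCTGAACAC
miR-214-3p probe: ACTGCCTGTCTGT
The miR-199a-3p probe pairs over all its 20 bases with miR-199b-3p as well, so its signal is the sum of both miRNAs. Over the 19 bases that can be compared, the probes of miR-199a-5p and miR-199b-5p differ by G14A, counted from 1 at the probe's 5′ end. The miR-214-3p probe has 13 bases, the fewest among the members' probes.

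TSN arrays were far brighter than control arrays. The 75th percentile of an array's signal over 261 probes well above background on every array, which was used to scale it, ran from 73.5 to 609 on control and from 737 to 1748 on TSN arrays, and 182 to 351 against 379 to 470 miRNAs were well above background. No slide held both arms: controls of the 2 earlier days shared slide 1, those of day 21 were on slide 2, TSN arrays of day 3 on slide 3 and those of the 2 later days on slide 4. Arm and slide therefore cannot be told apart in any TSN comparison below. Values are log2 of the signal over that 75th percentile, so 0 is the level of the array's 75th percentile and a difference of 1 is a factor of 2. A difference passed when its Benjamini-Hochberg adjusted p in the limma fit over 441 miRNAs was under 0.05.

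The members were of very unequal strength. miR-21a-5p was well above background on 24 of 24 arrays, with an unscaled signal of 662 to 4113 on control and 5628 to 14728 on TSN arrays. miR-199a-3p was measured on 11 of 12 control and 12 of 12 TSN arrays, with signals of 8.29 to 81.0 and 63.2 to 215. miR-199b-5p was measured on 1 of 12 control and 10 of 12 TSN arrays, and miR-214-3p on 0 of 12 and 12 of 12. The coefficient of variation over the spots of a probe had a median of 5.19% (control) and 5.67% (TSN) for miR-21a-5p and of 15.7% and 6.16% for miR-199a-3p. For miR-199b-5p it was 64.7% and 15.6%, and for miR-214-3p 76.4% and 15.9%.

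**Figure D1:**
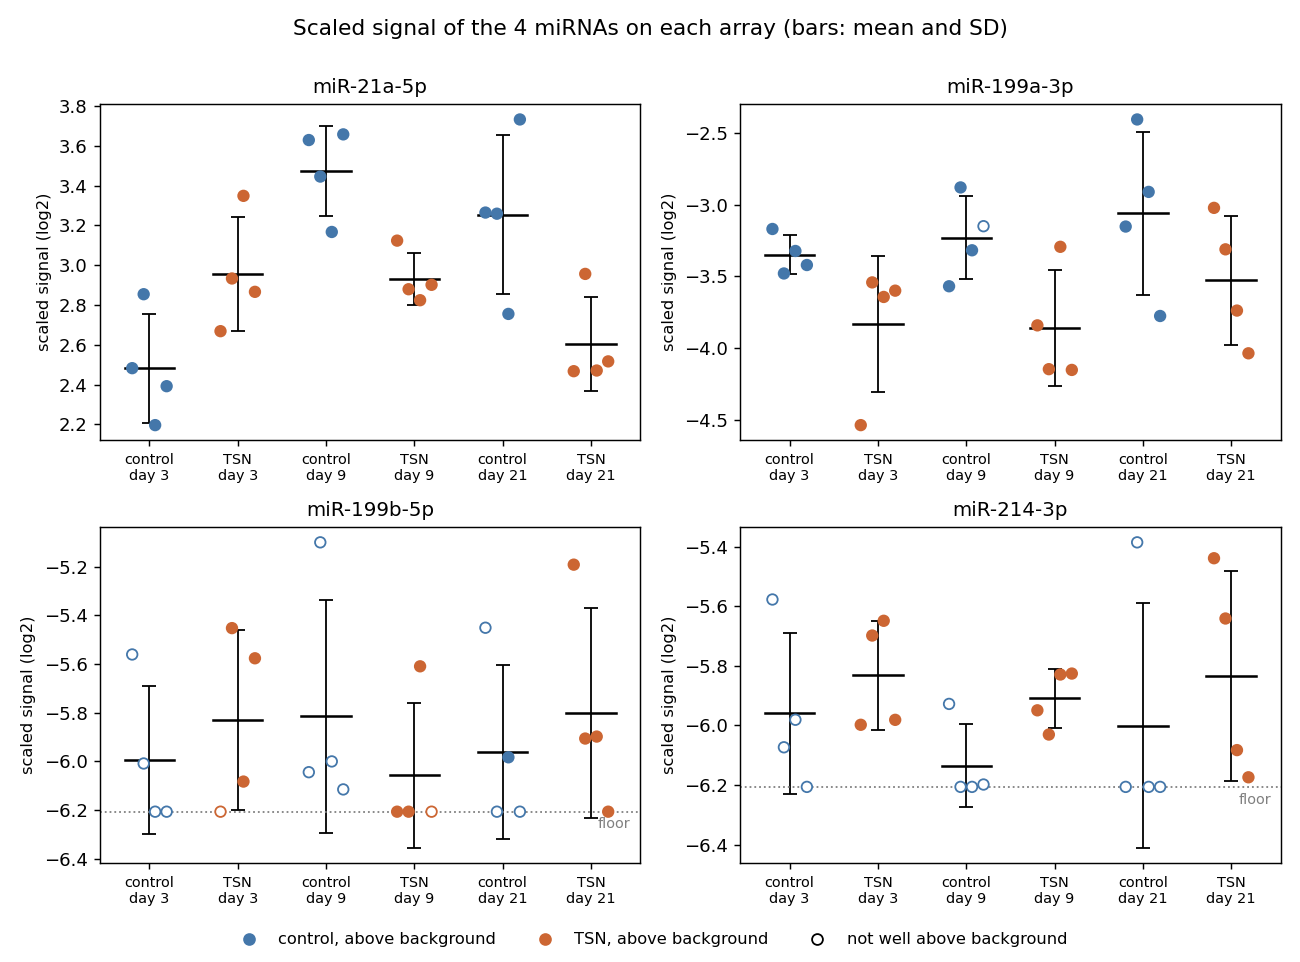
Each point is an array, with scaled signal on the log2 scale (vertical axes, which differ between panels) for the 6 groups of 4 arrays; lines are the mean and SD, open points are arrays on which the miRNA was not well above background, and the dotted line is the floor of -6.21. miR-21a-5p in controls went from 2.48 at day 3 to 3.47 at day 9 while TSN means stayed between 2.60 and 2.95, and miR-199b-5p and miR-214-3p lay at or near the floor.

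Before scaling, miR-21a-5p and miR-199a-3p were brighter in TSN than in control arrays at every day, and no groups overlapped. The unscaled ratio of TSN to control for miR-21a-5p was 10.0 at day 3, 8.11 at day 9 and 3.74 at day 21. For miR-199a-3p it was 5.17, 7.63 and 4.25. The 75th percentile of the 261 scaling probes differed in the same direction, by 7.23, 11.8 and 5.87. Each of these 9 differences had an exact two-sided permutation p of 0.0286, the smallest that 4 against 4 arrays allow (adjusted 0.0286 over the 15 computed, which include the 2 dim members). For miR-199b-5p and miR-214-3p no ratio is given, since their controls were mostly at background. At day 3 the ratio of miR-21a-5p was above that of the scaling probes and at days 9 and 21 below it. With the 75th percentile over all probes as the scale, the day 9 difference of miR-21a-5p was instead 0.849 (limma adjusted p 0.00241), or 0.0433 relative to the median miRNA.

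**Figure D2:**
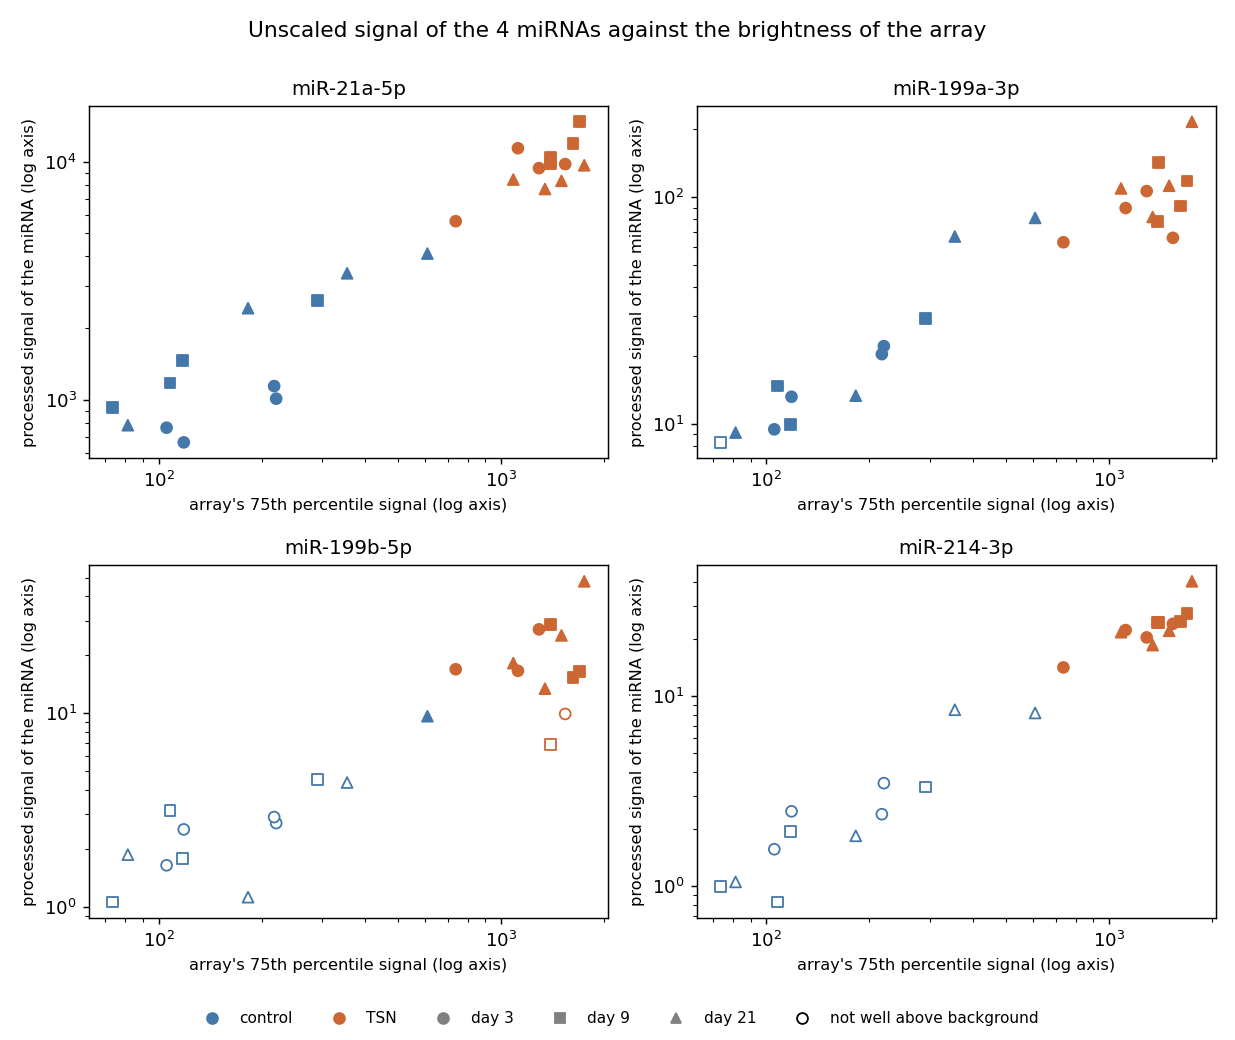
Unscaled processed signal of each miRNA (vertical, log axis, arbitrary scanner units) against the array's 75th percentile over the scaling probes (horizontal, log axis), a point per array, with day by symbol and open symbols where the miRNA was not well above background. All 12 TSN arrays lie to the right of the 12 control arrays, at 737 or more against 609 or less. At each day the unscaled signal of every member was higher on all TSN than on all control arrays of that day.

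Under this scaling miR-21a-5p went in opposite directions at the early and late days, though not under every other scaling: it was higher in TSN than in control serum at day 3 and lower at days 9 and 21. In the day 3 controls its scaled signal was 2.48, 2.85, 2.20 and 2.39, and in the day 3 TSN arrays 2.67, 2.93, 3.35 and 2.87. The group ranges overlapped, since control replicate 2 lay above TSN replicate 1. The means were 2.48 ± 0.28 and 2.95 ± 0.29 (SD, n = 4), a difference of 0.47 (SE 0.19), or 1.39 times, with a limma adjusted p of 0.0433. At day 9 controls read 3.63, 3.45, 3.17 and 3.66 and TSN arrays 3.12, 2.88, 2.82 and 2.90. Here every TSN array lay below every control. The difference was -0.54 (SE 0.19), or 0.687 times, with a limma adjusted p of 0.0168. At day 21 controls read 3.26, 3.26, 2.76 and 3.73 and TSN arrays 2.47, 2.96, 2.47 and 2.52. TSN replicate 2 was the only TSN array above the lowest control. The difference was -0.65 (SE 0.19), or 0.637 times, with a limma adjusted p of 0.00829.

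At day 3 miR-21a-5p was 1 of 4 members to rise, where 29.7% of all 441 miRNAs rose, 18.6% fell and 48.3% passed in either direction. At day 9 it was 1 of 4 to fall, where 34.2% fell, 28.6% rose and 62.8% passed, and at day 21 1 of 4 to fall, where 21.3% fell, 23.4% rose and 44.7% passed. Counts of 1 in 4 lie near these shares and say nothing particular about the set. Over all miRNAs tested the median change was 0.10, -0.035 and 0.0080 at the 3 days.

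The change of the TSN difference between days was itself tested. From day 3 to day 9 the difference in miR-21a-5p moved by -1.01 (SE 0.26, limma adjusted p 0.0107), and from day 3 to day 21 by -1.12 (SE 0.26, limma adjusted p 0.0119). Relative to the median miRNA where a setting moved that median by over 0.1, both kept their sign under 12 alternatives (-1.06 to -0.59 and -1.42 to -0.84). The first missed the threshold in 7 of them (adjusted p up to 0.515) and the second in 3 (up to 0.470). Among all miRNAs tested, 18.4% and 12.9% passed in these comparisons, 14.5% and 9.07% in the downward direction. From day 9 to day 21 it moved by -0.11 (95% interval -0.66 to 0.45, limma adjusted p 0.782), where 34% of all miRNAs passed.

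Within the vehicle arm miR-21a-5p rose by 0.99 (SE 0.19, 1.99 times) from day 3 to day 9, with a limma adjusted p of 0.00249 and no overlap of the 4 and 4 arrays. These 8 arrays share slide 1 and its scan, so this rise is not a difference between slides. Each day filled columns 1 to 4 of that slide, and the part of position on the slide in the rise was not tested. Centred on the median miRNA in the same way, it kept its sign in 12 alternatives (0.69 to 0.99) and missed the threshold in 5. The rise stands beside 9.52% of miRNAs that rose in this comparison, and 13.8% that passed. Controls of day 21, on another slide, were 0.77 above those of day 3 (limma adjusted p 0.00611, where 17% rose and 22.9% passed) and 0.22 below those of day 9 (95% interval -0.61 to 0.17, adjusted p 0.604, where 0.454% passed). In TSN mice miR-21a-5p passed in none of the 3 comparisons between days in the limma fit. It was -0.02 from day 3 to day 9 (95% interval -0.41 to 0.37, adjusted p 0.988), -0.33 from day 9 to day 21 within slide 4 (-0.72 to 0.06, adjusted p 0.158), and -0.35 from day 3 to day 21 (-0.74 to 0.04, adjusted p 0.288). The unadjusted p was 0.908, 0.0947 and 0.0760, and 36.7%, 43.3% and 6.8% of all miRNAs passed in these comparisons.

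In order of their means the groups ran from control day 9 (3.47) and control day 21 (3.25) through TSN day 3 (2.95), TSN day 9 (2.93) and TSN day 21 (2.60) to control day 3 (2.48). Each group overlapped its neighbour in this order. Only the gap from TSN day 9 to TSN day 21, 0.33, was wider than the larger SD of the pair. A second probe for miR-21a-5p, a base shorter at 19 bases, gave differences of 0.51, -0.59 and -0.59 at days 3, 9 and 21.

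None of the 3 differences of miR-21a-5p between TSN and control held under every alternative. These counts use values relative to the median miRNA where a setting moved that median by over 0.1. Over 13 alternatives the day 3 rise turned sign in 2 and missed the threshold in 4. The day 9 fall turned in 4 and missed in 2, and the day 21 fall turned in 1 and missed in 4. With normexp the day 9 and day 21 differences were 1.94 and 1.03, relative to the median miRNA, and both passed (limma adjusted p 2.89e-09 and 0.000106). Before that centring they were -0.0933 and -0.348, and neither passed (limma adjusted p 0.644 and 0.0951). With hybridisation spike-ins the centred differences of days 9 and 21 were 0.53 and -0.11, and neither passed. Before centring these were 3.02 and 2.05, and both passed (limma adjusted p 5.28e-07 and 7.12e-05). Leaving out single arrays, the day 3 rise lost its call without control replicate 1, 3 or 4 (0.473, 0.378 and 0.443) or TSN replicate 2, 3 or 4 (0.480, 0.341 and 0.502) of that day, with adjusted p of 0.0567 to 0.161. The day 9 fall lost its call without control replicate 4 (-0.48, adjusted p 0.0501), and the day 21 fall kept it in all 8 such fits (-0.82 to -0.49). In the authors' deposited table, where scaling and centring stay unknown, the day 3 means were 12.16 in TSN and 12.21 in control arrays, those of day 9 12.27 and 12.96, and those of day 21 11.75 and 12.79.

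**Figure D3:**
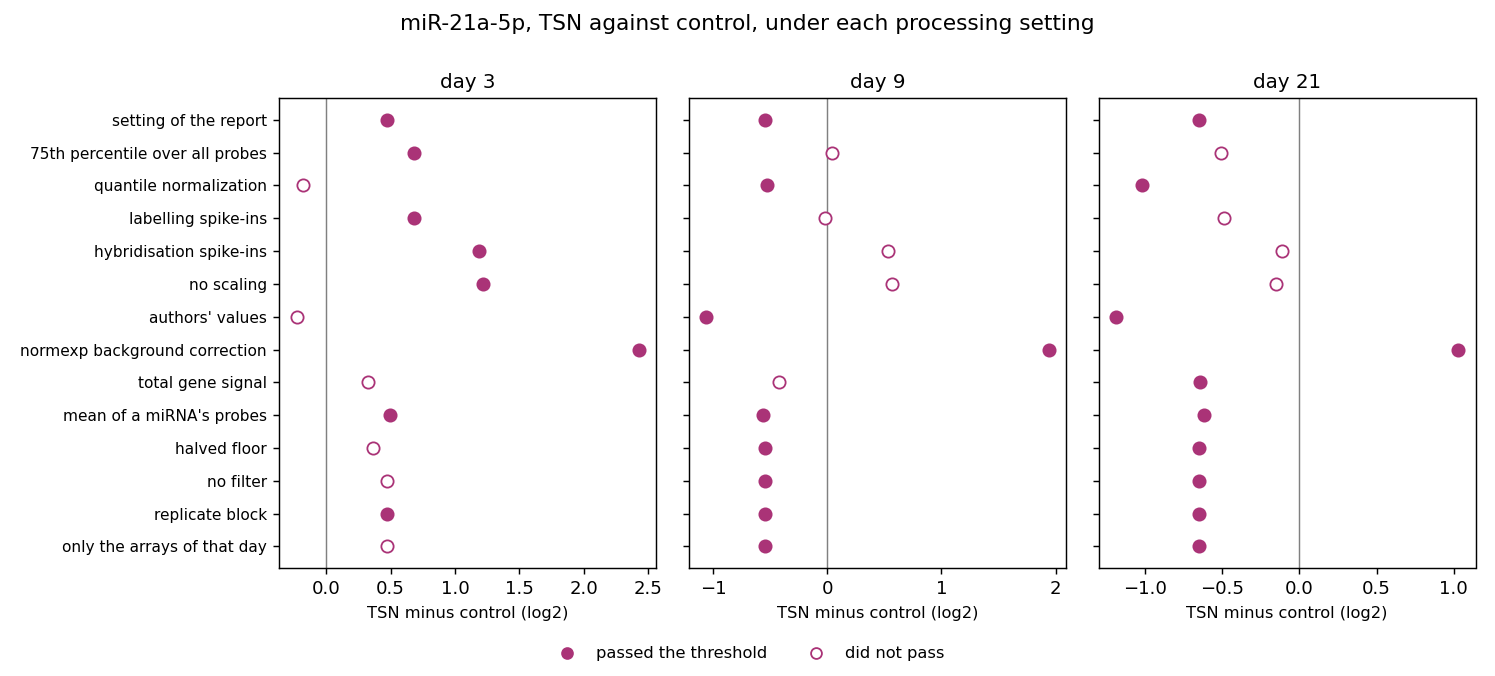
Difference of miR-21a-5p between TSN and control (horizontal axes, log2, separate scale for each day) under the processing of the report and 13 alternatives (rows), relative to the median miRNA where a setting moved that median by over 0.1; filled points passed an adjusted p of 0.05. The day 3 difference was below 0 with quantile normalization and with the authors' values, and the day 9 difference was above 0 with the percentile over all probes, hybridisation spike-ins, no scaling and normexp. The day 21 difference was above 0 with normexp.

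Markers of blood cells differed between the arms as well. Of 5 miRNAs taken as platelet markers, 4 were on the array and tested. Of these, miR-191-5p was measured on 0 of 12 control and 11 of 12 TSN arrays, so its fitted values rest on controls near the floor and show no direction. In TSN arrays 0 of 4 passed at day 3, 2 of 4 fell at day 9 (miR-223-3p and miR-126a-3p) and 3 of 4 fell at day 21 (these and miR-24-3p), where 48.3% of all miRNAs passed at day 3, 34.2% fell at day 9 and 21.3% fell at day 21. Their summed scaled level, in multiples of the array's 75th percentile, was 2.04 to 2.50 in controls of day 3, 2.70 to 3.56 at day 9 and 3.21 to 5.48 at day 21, and 2.18 to 3.41, 2.16 to 2.73 and 2.06 to 2.97 in TSN arrays. Among controls miR-21a-5p was lowest at day 3, and so was the median sum of the platelet markers. The same held for the red cell markers (41.0, 49.5 and 57.4 at days 3, 9 and 21) and the leukocyte markers (1.04, 1.67 and 1.75). It did not hold for the hepatocyte markers (0.43, 0.34 and 0.54). The low sum of day 3 was thus not particular to platelet markers. The 5 red cell markers gave sums of 33.2 to 57.0, 33.2 to 65.8 and 53.7 to 95.02 in controls and 28.3 to 48.0, 74.97 to 94.6 and 41.6 to 62.9 in TSN arrays at days 3, 9 and 21, with 1 of 5 higher and 2 lower at day 3, 3 and 1 at day 9, and 0 and 2 at day 21. Of 4 leukocyte markers tested 1 was higher and 2 lower at day 3, and 2 and 3 were lower at days 9 and 21. Over all miRNAs 29.7%, 28.6% and 23.4% were higher and 18.6%, 34.2% and 21.3% lower at the 3 days. The part of these cells in the miR-21a-5p result was not tested.

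miR-199a-3p, which marks mesenchymal cells and is also carried by platelets, had lower means in TSN than in control arrays at each day, and none of these differences passed. In the day 3 controls it read -3.17, -3.48, -3.32 and -3.42, and in the day 3 TSN arrays -4.54, -3.54, -3.64 and -3.60. All 4 TSN arrays lay below all 4 controls, TSN replicate 1 being the lowest. The difference was -0.48 (95% interval -1.07 to 0.11), with a limma adjusted p of 0.178. At day 9 controls read -3.57, -2.88, -3.32 and -3.15, the last of them not well above background, and TSN arrays -3.84, -4.15, -3.29 and -4.15. The groups overlapped through TSN replicate 3. The difference was -0.63 (95% interval -1.22 to -0.04), with an unadjusted p of 0.0376 and a limma adjusted p of 0.0588. At day 21 controls read -3.15, -2.40, -2.91 and -3.78 and TSN arrays -3.02, -3.31, -3.74 and -4.04, a difference of -0.47 (95% interval -1.06 to 0.12, limma adjusted p 0.203) between widely overlapping groups. These intervals allow a fall of more than 1 log2 unit at each day, so a p above 0.05 does not show equal levels.

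The day 9 difference of miR-199a-3p passed without control replicate 1 (-0.743, limma adjusted p 0.0434) or without TSN replicate 3 (-0.82, adjusted p 0.0208). It also passed with the mean of its probes (-0.776, adjusted p 0.0253) and with a halved floor (-0.63, adjusted p 0.0455). With the authors' values it passed only relative to the median miRNA (-0.53, adjusted p 0.0287, against -0.164 and 0.458 before that centring). Its sign turned at all 3 days with hybridisation spike-ins, with no scaling and with normexp, relative to the median miRNA. Its second probe, well above background on 17 of 24 arrays, gave -0.59, -0.92 and -0.44.

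In the 9 comparisons between days miR-199a-3p passed in 0 by limma. Within slide 1 controls of day 9 stood 0.12 above those of day 3 (95% interval -0.47 to 0.71), and within slide 4 TSN arrays of day 21 stood 0.33 above those of day 9 (-0.26 to 0.92). The smallest unadjusted p of the 9 was 0.254. In order of the means the 3 control groups (-3.06, -3.23 and -3.35 at days 21, 9 and 3) came before the 3 TSN groups (-3.53, -3.83 and -3.86 at days 21, 3 and 9), but neighbours overlapped and each gap was smaller than the larger SD of the pair.

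**Figure D4:**
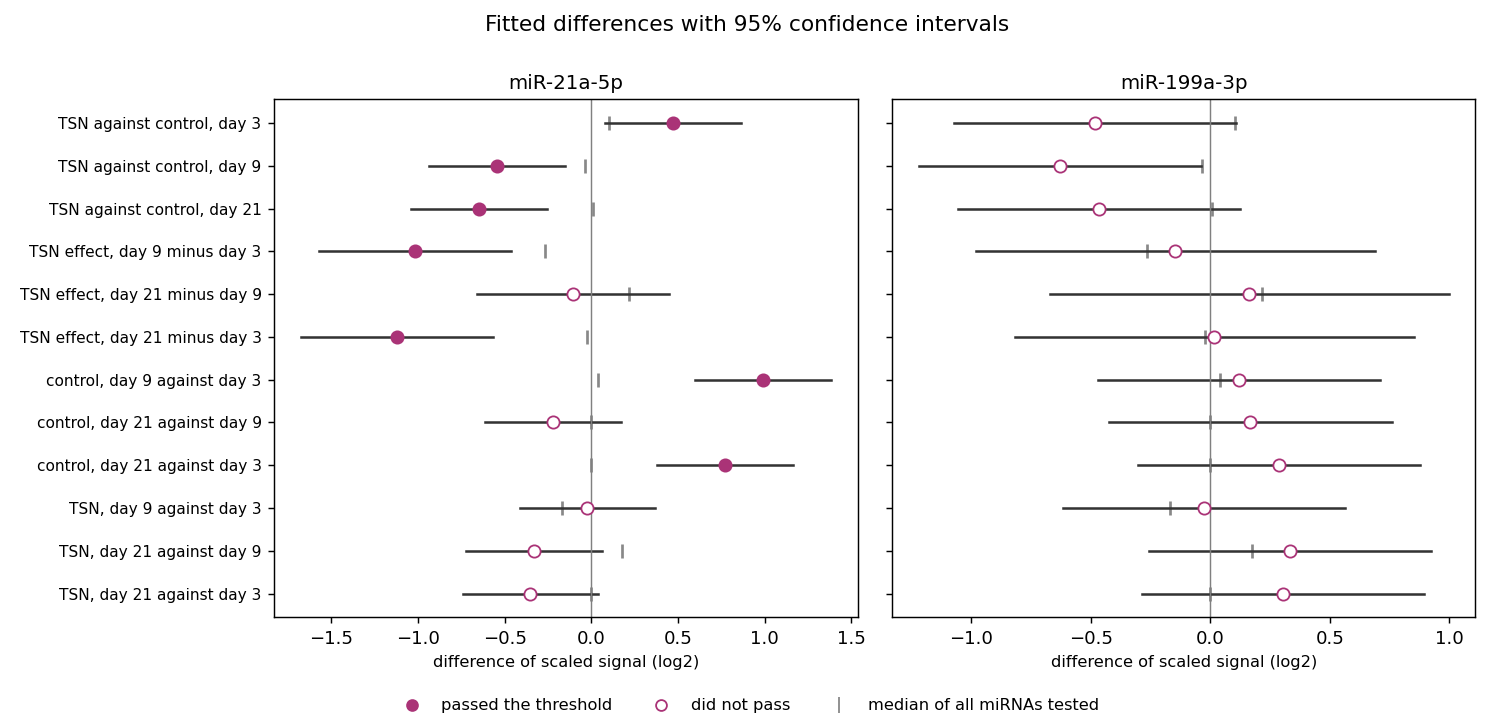
Fitted log2 differences of miR-21a-5p and miR-199a-3p in the 12 comparisons (rows), with 95% confidence intervals that are not adjusted for the number of miRNAs; filled points passed the adjusted p of 0.05 and grey ticks are the median over all 441 miRNAs. miR-21a-5p passed in 7 of 12, from -1.12 to 0.99, and miR-199a-3p in 0 of 12.

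miR-214-3p, the product of the Dnm3os transcript that lies beside miR-199a-2, was detected in TSN arrays only, which were also the brighter arrays. Its unscaled signal in controls was 2.48, 1.57, 3.49 and 2.40 at day 3, 1.93, 0.828, 3.33 and 1.00 at day 9, and 1.05, 8.49, 8.17 and 1.84 at day 21, and none of these was well above background. In TSN arrays it was 24.1, 14.2, 22.3 and 20.4 at day 3, 27.3, 24.8, 24.5 and 24.5 at day 9, and 40.3, 21.7, 22.1 and 18.6 at day 21, all well above background. The day 9 TSN arrays were the most alike, and TSN day 21 replicate 1 was the brightest. After division by each array's 75th percentile the groups overlapped at every day, the TSN arrays reading -6.17 to -5.44 and the controls -6.21, the floor, to -5.39. Of the 12 control arrays 6 were at the floor. The lowest level that control arrays could measure was above the TSN mean, so no fold is given. The limma adjusted p was 0.620, 0.302 and 0.523 at days 3, 9 and 21.

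miR-199b-5p, the 5p arm of the Mir199b gene in Dnm1, gave a like picture with more spread. Its unscaled signal in controls ranged from 1.06 to 9.63, and the brightest, day 21 replicate 3, was the only control array well above background. In TSN arrays it was 9.90, 16.8, 16.5 and 27.0 at day 3, 16.5, 15.2, 28.6 and 6.92 at day 9, and 47.8, 18.1, 25.2 and 13.4 at day 21. The 2 TSN arrays on which it was not well above background were day 3 replicate 1 and day 9 replicate 4, the dimmest of their groups. After scaling, 4 control and 5 TSN arrays were at the floor of -6.21, and the groups overlapped at every day. The limma adjusted p was 0.654, 0.442 and 0.692, and no fold is given at days 3 and 9, where the controls were below background throughout. At day 21, with 1 control array above background, the difference was 0.16 (95% interval -0.38 to 0.71). For miR-199b-5p and miR-214-3p 0 of the 9 comparisons between days passed by limma, and the smallest unadjusted p was 0.280 and 0.354.

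miR-21a-5p passed in TSN against control at all 3 days and the other 3 members at 0, and differences between members were not tested. At days 9 and 21 miR-199a-3p (-0.63 and -0.47) and miR-21a-5p (-0.54 and -0.65) had values of the same sign. miR-214-3p and miR-199a-3p, whose genes share Dnm3os, were detected on unequal numbers of control arrays (0 and 11 of 12). Their probes differ in length and sequence, so their levels cannot be set against each other. The second probes of miR-199b-5p and miR-214-3p were well above background on 4 and 1 of 24 arrays, TSN arrays in each case.

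Relatives by precursor, name or seed added little signal. Of 10, 7 were on the array, and 0 were measured on all 4 arrays of a group. miR-199a-5p, the partner arm of miR-199a-3p, was well above background on 1 TSN array. miR-21a-3p (the partner arm of miR-21a-5p), miR-21b, miR-21c, miR-590-5p, miR-214-5p and miR-761 were not well above background on any of the 24 arrays. The miR-21a-5p probe has a run of 13 bases that also pairs with miR-21b and with miR-21c, whose own probes gave no signal above background. Among 4 smooth muscle and mesenchyme markers, miR-143-3p was measured on 5 of 12 control and 12 of 12 TSN arrays and miR-145a-5p on 0 and 12. In TSN arrays 0, 1 and 2 of these 2 passed upward at days 3, 9 and 21, where 29.7%, 28.6% and 23.4% of all miRNAs did. The fitted values of miR-145a-5p rest on controls at the floor and show no direction. This leaves miR-143-3p at day 21 (0.82, limma adjusted p 0.0464). The 2 markers not tested were miR-199a-5p and miR-214-5p, at background as described. The summed scaled level of the 4 was 0.0433 to 0.121 in control and 0.0471 to 0.207 in TSN arrays.

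Of other miRNAs described as profibrotic in liver, more passed downward than upward at each day under this scaling. Of 9, 7 were tested: 1 was higher and 2 lower at day 3, 0 and 4 at day 9, and 0 and 4 at day 21, where 29.7% and 18.6%, 28.6% and 34.2%, and 23.4% and 21.3% of all miRNAs were higher and lower. One of the 4 at day 9, miR-34a-5p, was measured on 4 of 4 TSN and 0 of 4 control arrays. Its fitted value thus rests on the floor and shows no direction, which leaves 3. The counts of day 3 and these 3 falls of day 9 lie near the shares over all miRNAs. The list had median changes of -0.20, -0.54 and -0.81 beside 0.10, -0.035 and 0.0080 over all miRNAs. Over the 5 measured in both arms the medians were -0.43, -0.90 and -1.49. With normexp, relative to the median miRNA, the counts turned at the first 2 days. They were 2 higher and 0 lower at day 3, 1 and 0 at day 9, and 0 and 1 at day 21. miR-222-3p, which is raised in activated stellate cells, was -1.23, -1.78 and -1.92 at the 3 days (limma adjusted p 2.10e-06, 1.23e-08 and 1.38e-08). With values relative to the median miRNA where a setting moved that median by over 0.1, it kept its sign in 13 alternatives. These values missed the threshold at days 3 and 9 with hybridisation spike-ins (-0.506 and -0.709), no scaling (-0.475 and -0.672) and normexp (-0.151 and -0.173). Before that centring the 3 settings gave 1.7 and 1.78, 1.63 and 1.78, and -1.81 and -2.21, and each passed by limma. miR-27a-3p, which acts on lipid storage in stellate cells, was -0.59, -1.05 and -1.49 (limma adjusted p 0.00677, 2.89e-05 and 8.58e-07), but above 0 relative to the median miRNA at days 3 and 9 with hybridisation spike-ins, no scaling and normexp. At day 21 its centred values missed the threshold with these (-0.953, -0.996 and -0.136). At days 3 and 9 they missed it with labelling spike-ins (-0.382 and -0.518) and the percentile over all probes (-0.382 and -0.459).

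Among antifibrotic miRNAs more rose than fell at day 9 and none rose at day 21. Of 15, 14 were tested: 5 were higher and 4 lower at day 3, 6 and 1 at day 9, and 0 and 6 at day 21, beside the same shares over all miRNAs. At day 3 these counts lie near those shares. The median changes were 0.30, 0.65 and -0.35 (0.27, 0.57 and -0.36 over the 13 measured in both arms). Relative to the median miRNA, the falls at day 21 were 0 of 14 with hybridisation spike-ins and with no scaling. On the same centred values, with normexp 8, 11 and 5 were higher and 0 lower at the 3 days. miR-29a-3p, a repressor of collagen messages, was 0.91 at day 3 (limma adjusted p 3.04e-05). miR-16-5p, which promotes stellate cell death, was -1.08 at day 3 and -1.33 at day 21 (adjusted p 5.07e-05 and 6.53e-06). Relative to the median miRNA it stayed below 0 except with normexp. Before that centring normexp gave -0.833 and -1.07 (limma adjusted p 0.000456 and 3.7e-05). Centred values missed the threshold at both days with hybridisation spike-ins (-0.361 and -0.786) and no scaling (-0.330 and -0.830). miR-16-5p is also abundant in red cells. miR-15b-5p, of the same family, was 0.92 at day 9 (adjusted p 6.81e-05). With the authors' values it was 0.263 relative to the median miRNA and did not pass. miR-19b-3p, which lowers TGF-β receptor output, was -1.23 at day 21 (adjusted p 3.43e-05). Relative to the median miRNA it also turned with normexp, and missed the threshold with hybridisation spike-ins (-0.691) and no scaling (-0.735). Its normexp value before that centring was -1.08 (limma adjusted p 3.56e-05). miR-133a-3p, a striated muscle miRNA that represses collagen, was at least 6.35-fold higher at day 9 (adjusted p 5.52e-07), measured on 4 of 4 TSN and 0 of 4 control arrays. That bound sets the TSN mean against the lowest level well above background on each control array or the miRNA's own signal there, whichever is higher. Of 3 striated muscle markers tested, 1, 3 and 0 were higher at days 3, 9 and 21, and of 3 hepatocyte markers 1, 2 and 1. Over all miRNAs 29.7%, 28.6% and 23.4% were higher, and counts of 1 in 3 lie near these shares. The muscle markers miR-133a-3p, miR-133b-3p and miR-1a-3p were measured on only 0, 1 and 3 of 12 control arrays.

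**Figure D5:**
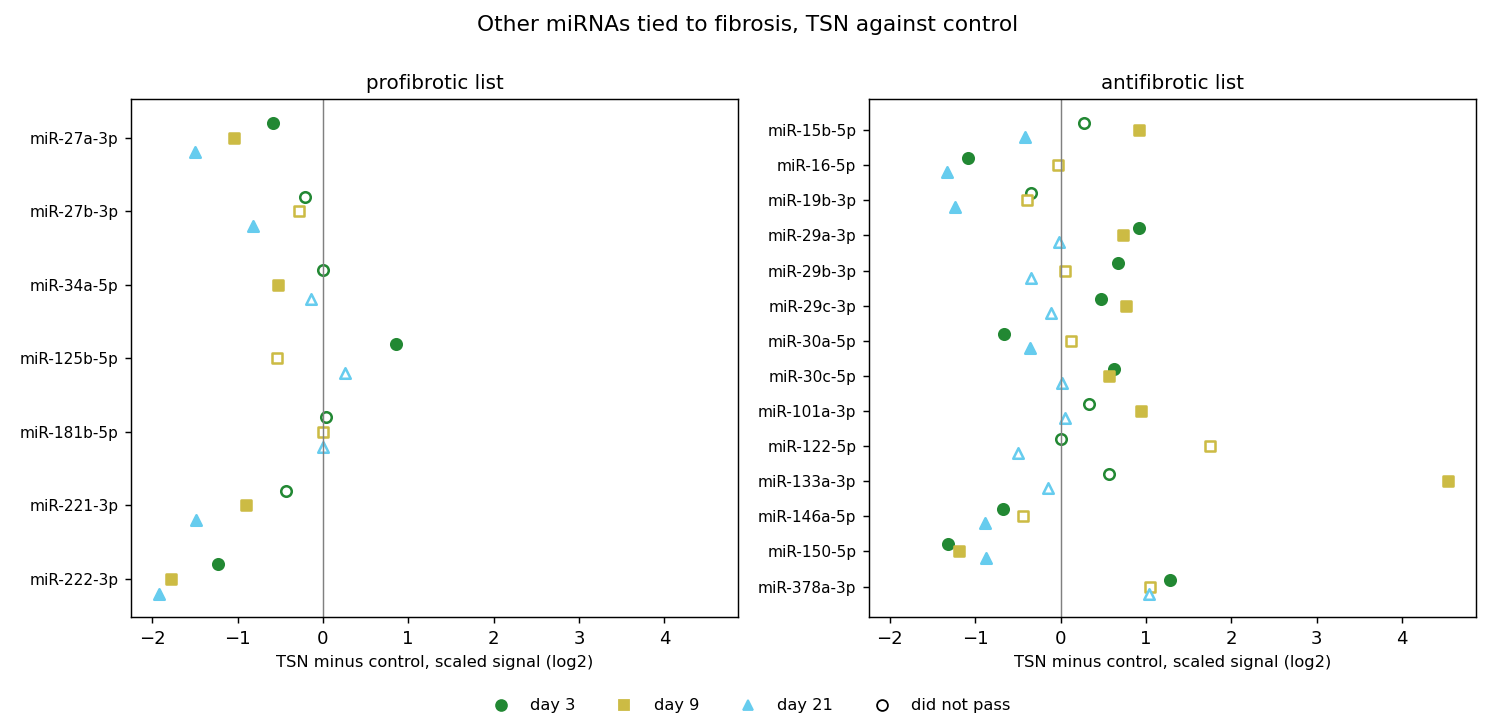
Differences between TSN and control (horizontal axes, log2 of scaled signal) for the tested miRNAs (rows) of the profibrotic and antifibrotic lists at days 3, 9 and 21, with filled symbols where the adjusted p was under 0.05. In the profibrotic list 4 of 7 are filled and below 0 at days 9 and 21. Of those at day 9, miR-34a-5p rests on the floor and shows no direction. In the antifibrotic list 6 of 14 are filled and above 0 at day 9 and 0 at day 21.

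The miRNAs whose profile over the 24 arrays lay closest to that of miR-21a-5p, after each miRNA's own mean was subtracted, were miR-24-3p, miR-29b-3p and miR-130a-3p, with mean absolute differences of 0.19, 0.21 and 0.21 among 151 candidates measured on all arrays. The mean absolute deviation of miR-21a-5p from its own mean was 0.34. Closest to miR-199a-3p among 440 were miR-126a-3p (0.25), miR-27b-3p (0.29) and miR-7048-5p (0.29), against its own 0.36. For miR-199b-5p and miR-214-3p the closest, miR-184-3p (0.24) and miR-181a-5p (0.18), were themselves measured on only 8 and 11 of 24 arrays, so these matches mostly compare values at the floor.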

How the data were processed

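Serum exosome RNA of 24 samples was hybridised to one-colour (Cy3) Agilent mouse miRNA arrays, per the labels' protocols, with extraction by the mirVana PARIS kit and Trizol. The scanner files were deposited with intensity values for every spot, from which Feature Extraction 10.7.1.1 had removed the background and which carry no scaling between arrays, per the file headers. The authors' deposited log2 values, of 1882 entries with column medians of 4.373 to 4.4, were read as log2 because they tracked the log2 scanner signals (r of 0.957 to 0.982 across miRNAs), and their scaling and centring stay unknown.

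Control and outlier spots were left out, spots of a probe averaged (median 14), and each array divided by the 75th percentile of those 261 probes that were well above background throughout. A probe counted as well above background where more than 0.5 of its spots did. A floor of 0.0135 (-6.21 in log2) was set before log2 was taken. The probe with the highest mean processed signal stood for a miRNA. A 6-group limma fit covered the 441 miRNAs that some group measured on each of its 4 arrays (limma 3.58.1, R 4.3.3), two-sided, over 12 comparisons with Benjamini-Hochberg adjustment. Where a group had no array above background, the difference is only bounded. Unscaled signals were compared by exact permutation over 70 allocations. The fit was tested on simulated data with known changes, where it missed more changes of 0.5 in log2 than it called. The number of arrays limits the precision.

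Replicate numbers are slide columns. Same-numbered arrays deviated together (r above 0.1) in 4 of 4 pairs in TSN against control at day 9 only (r 0.201 to 0.356). In the other comparisons 0 to 3 of 4 pairs did, with r up to 0.501. A replicate block was therefore an alternative. Other alternatives changed the scaling, background correction, spot summary, probe, floor, filter and samples, and left out single arrays. The members and the lists were chosen with earlier results of these data known. From the profibrotic and antifibrotic lists the 2 miRNAs with the smallest adjusted p in each TSN comparison are named, and for each member the 3 miRNAs of most like profile were found. Names are those of the array design.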

Additional observations from a re-analysis of the deposited data

Results flagged for a closer look

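Within groups of 4 arrays, 6 of the 24 member-by-group sets held an array whose gap to its nearest neighbour took up more of the group's range than Dixon's 95% limit for 4 values allows. Among sets of normal values not held at a floor, chance alone marks about 1 set in 20. For miR-21a-5p it was TSN day 21, where replicate 2 read 2.96 against 2.47 to 2.52 in the others (ratio 0.899). For miR-199a-3p it was TSN day 3, where replicate 1 read -4.54 against -3.64 to -3.54 (ratio 0.898). For miR-199b-5p it was control day 9 (replicate 2 at -5.10, ratio 0.887) and TSN day 9 (replicate 3 at -5.61 with the others at the floor, ratio 1). For miR-214-3p it was control day 9 (replicate 1 at -5.93, ratio 0.971) and control day 21 (replicate 2 at -5.39 with the others at the floor, ratio 1). The sets of miR-199b-5p and miR-214-3p rest on values at or near the floor, so that rate does not apply to them. Where all other arrays are at the floor the ratio is 1 by construction.

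The TSN difference in miR-21a-5p changed between days by the interaction terms of the limma fit. It moved by -1.01 (SE 0.26, adjusted p 0.0107) from day 3 to day 9, where controls moved by 0.99 and TSN arrays by -0.02. From day 3 to day 21 it moved by -1.12 (SE 0.26, adjusted p 0.0119), where controls moved by 0.77 and TSN arrays by -0.35. The arms at each day lie on separate slides, so the part of the slide in these terms cannot be told apart from that of the arm.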

How the results depend on the processing

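Values here are log2 differences, relative to the median of all miRNAs tested wherever a setting moved that median by over 0.1 from the reported processing. At days 3, 9 and 21 this shift was 0.51, 0.81 and 0.18 with the percentile over all probes, 0.90, 1.22 and 0.65 with labelling spike-ins, 2.20, 2.49 and 2.16 with hybridisation spike-ins (chosen after seeing the data), 2.10, 2.45 and 2.06 with no scaling, 0.18, 0.37 and 0.15 with the authors' values, and -1.66, -2.04 and -1.37 with normexp. The cause of none of the changes below was tested, apart from the settings that tested more miRNAs or used fewer arrays.

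For miR-21a-5p the day 3 difference was -0.178 with quantile normalization and -0.23 with the authors' values, and missed the threshold with total gene signal (0.326), halved floor (0.363), no filter (0.473, adjusted p 0.0628) and only the arrays of that day (0.473, adjusted p 0.0829). The day 9 difference was 0.0433 with the percentile over all probes, 0.532 with hybridisation spike-ins, 0.569 with no scaling and 1.94 with normexp, and missed the threshold with labelling spike-ins (-0.0155) and total gene signal (-0.42). The day 21 difference was 1.03 with normexp and missed the threshold with the percentile over all probes (-0.51), labelling spike-ins (-0.487), hybridisation spike-ins (-0.11) and no scaling (-0.154). The change from day 3 to day 9 kept its sign but missed the threshold with the percentile over all probes (-0.755), quantile normalization (-0.586), labelling (-0.844) and hybridisation spike-ins (-0.784), no scaling (-0.783), normexp (-0.639) and total gene signal (-0.938), and that from day 3 to day 21 with quantile normalization (-0.841), hybridisation spike-ins (-1.34) and no scaling (-1.42). The change from day 9 to day 21 was 0.012 with the authors' values. The control rise from day 3 to day 9 kept its sign and missed the threshold with the percentile over all probes (0.734), labelling (0.782) and hybridisation spike-ins (0.719), no scaling (0.709) and normexp (0.732). Control day 21 against day 9 was 0.123, 0.203 and 0.387 with hybridisation spike-ins, no scaling and normexp. TSN day 9 against day 3 was 0.105 with the percentile over all probes, 0.213 with quantile normalization, 0.133 and 0.0978 with labelling and hybridisation spike-ins, 0.101 with no scaling, 0.185 with normexp and 0.087 with the halved floor, and TSN day 21 against day 9 passed with quantile normalization (-0.622).

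For miR-199a-3p hybridisation spike-ins, no scaling and normexp gave 0.238, 0.263 and 0.105 at day 3, 0.412, 0.426 and 0.178 at day 9 and 0.0145, 0.0111 and 0.0193 at day 21. It passed at day 3 with total gene signal (-0.984) and at day 9 with the authors' values (-0.534), the mean of its probes (-0.776) and the halved floor (-0.63). For miR-199b-5p and miR-214-3p, whose values lie at the floor, the percentile over all probes, labelling spike-ins, hybridisation spike-ins, no scaling and normexp gave -0.232, -0.419, -1.3, -1.32 and -0.475 (miR-199b-5p) and -0.251, -0.275, -1.04, -1.06 and -0.434 (miR-214-3p) at day 3, and miR-214-3p gave -0.327, -0.243, -1.03, -1.06 and -0.516 at day 9 and -0.0811, -0.114, -0.788, -0.712 and -0.524 at day 21. miR-199b-5p passed at day 9 under the first 4 of these (-0.648, -0.877, -1.71 and -1.7) and was -0.105, -0.865, -0.789 and -0.521 at day 21 under the last 4. The halved floor gave -0.153 for it at day 3. Total gene signal gave 1.07 and -0.52 for it at days 9 and 21 and -3.2 for miR-214-3p at day 21, and quantile normalization gave 0.62 for miR-214-3p at day 9, which passed. Between days, 1 of 9 comparisons passed for each with the percentile over all probes, and 1 for miR-214-3p with total gene signal.

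Of the other named miRNAs, miR-27a-3p was 0.132, 0.163 and 0.698 at day 3 and 0.029, 0.066 and 0.672 at day 9 with hybridisation spike-ins, no scaling and normexp. With normexp miR-16-5p was 0.824 at day 3 and 0.306 at day 21, miR-19b-3p was 0.295 at day 21, and 175 and 124 miRNAs passed at days 9 and 21, against 277 and 197.

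With the replicate block no member changed its call: miR-21a-5p was 0.473, -0.542 and -0.65 at the 3 days (adjusted p 0.0444, 0.0181 and 0.00924), and miR-199a-3p was -0.63 at day 9 (adjusted p 0.0584). Leaving out each array in turn gave -0.645 to -0.481 for miR-21a-5p at day 9 and 0.341 to 0.597 at day 3, -0.819 to -0.514 for miR-199a-3p at day 9, -0.0418 to 0.332 for miR-199b-5p at day 21, and, for miR-21a-5p, -0.273 to 0.0525 for the change from day 9 to day 21 and -0.117 to 0.109 for TSN day 9 against day 3. Without a filter 745 miRNAs were tested, those at the floor on all 24 arrays being left out. Dim control signals limit what can be said of miR-199b-5p and miR-214-3p.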
